A study of Mus musculus with 11 samples.

Results

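Of the 20576 H3K9me3 peaks on chromosomes 1 to 19 of mouse E14 embryonic stem cells, 234 (1.14%) overlapped an H3K27me3 peak by at least 1 bp and no H3K4me1 peak. These 234 regions are called overlap peaks here. They were chosen from the authors' unified peak lists, 1 per mark, each of which joins the peaks of all libraries of that mark. Most H3K9me3 peaks, 19008 (92.4%), overlapped neither other mark (H3K9me3-only peaks), while 1312 (6.38%) overlapped H3K4me1 alone and 22 overlapped both. On the other side, 221 of 17634 H3K27me3 peaks met an overlap peak, and 13349 overlapped neither other mark (H3K27me3-only peaks). The overlap was thus the selection, and the number, width and call depth of the peaks are descriptions of it.

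The study tested CUT&Tag-BS, in which Tn5 transposase, tethered through protein A to an antibody, cuts chromatin that carries a histone mark, and the released DNA is bisulfite converted, so that each fragment reports both the mark and its CpG methylation. All libraries came from a single line, E14, of 129/Ola background, grown in serum with leukemia inhibitory factor (LIF), without any treatment or genetic change named. Bisulfite libraries were made for H3K4me1 and H3K9me3 from 250000 cells, each with a run 1 of 35-bp and a run 2 of 75-bp paired-end reads, and for H3K27me3 from 4000, 20000, 100000 and 250000 cells (4K, 20K, 100K and 250K). A library without bisulfite treatment was also prepared for each mark, which makes 11 samples in all. Runs 1 and 2 of H3K9me3 were counted as 1 library, because CpGs called exactly once in each run had the same state more often (90.4% of 24605) than CpGs called exactly 2 times within run 2 (84.6% of 97900). Each mark was therefore represented by a single library at a given cell number, and every test below compares libraries, not replicated marks.

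H3K9me3 is written by SETDB1 and the SUV39H enzymes and is the mark of constitutive heterochromatin and silenced transposons, where CpGs are usually methylated. H3K27me3 is written by Polycomb repressive complex 2, which in embryonic stem cells sits mostly at unmethylated CpG islands of silent developmental genes. The marks and the DNA methylation they go with are therefore mostly separate. A known exception are imprinted control regions, where the methylated parental copy carries H3K9me3, bound through the zinc finger protein ZFP57 and KAP1, and the other copy is unmethylated.

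Promoter sequences show the CpG content that is at issue. Of the upstream windows in the RefSeq promoter table (250 bases before the start of a gene, assembly GRCm38.p6), 35 windows of 33 genes touched 31 overlap peaks. The 6 below lie whole inside an overlap peak and are printed 5′ to 3′ on the strand of the gene, with each CpG in capitals. Nap1l5 and Usp29 stand for peaks with a high level in the H3K9me3 library and a low level in the H3K27me3 library. Brdt and B3glct stand for peaks with a smaller difference, and Syce1 and Hdac2 for peaks low in both.
Nap1l5, chr6:58907127-58907376, minus strand: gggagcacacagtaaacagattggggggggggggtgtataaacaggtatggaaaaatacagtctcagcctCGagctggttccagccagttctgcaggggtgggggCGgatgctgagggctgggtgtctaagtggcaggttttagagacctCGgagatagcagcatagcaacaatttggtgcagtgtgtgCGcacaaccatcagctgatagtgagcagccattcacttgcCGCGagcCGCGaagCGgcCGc
Usp29, chr7:6730333-6730582, plus strand: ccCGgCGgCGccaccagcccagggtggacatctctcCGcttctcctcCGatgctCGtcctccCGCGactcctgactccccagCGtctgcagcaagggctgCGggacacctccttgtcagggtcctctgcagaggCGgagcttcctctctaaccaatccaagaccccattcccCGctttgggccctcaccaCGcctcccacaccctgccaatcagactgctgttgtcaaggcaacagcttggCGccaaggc
Brdt, chr5:107330944-107331193, plus strand: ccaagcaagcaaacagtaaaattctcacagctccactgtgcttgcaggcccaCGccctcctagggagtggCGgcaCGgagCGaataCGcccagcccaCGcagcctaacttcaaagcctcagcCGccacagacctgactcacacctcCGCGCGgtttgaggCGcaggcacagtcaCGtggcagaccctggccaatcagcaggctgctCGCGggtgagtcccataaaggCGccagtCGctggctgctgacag
B3glct, chr5:149677980-149678229, plus strand: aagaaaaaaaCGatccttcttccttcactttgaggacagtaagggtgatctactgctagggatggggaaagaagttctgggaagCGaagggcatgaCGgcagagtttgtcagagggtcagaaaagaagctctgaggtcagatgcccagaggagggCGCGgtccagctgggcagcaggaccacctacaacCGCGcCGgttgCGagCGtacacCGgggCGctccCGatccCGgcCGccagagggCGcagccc
Syce1, chr7:140787855-140788104, minus strand: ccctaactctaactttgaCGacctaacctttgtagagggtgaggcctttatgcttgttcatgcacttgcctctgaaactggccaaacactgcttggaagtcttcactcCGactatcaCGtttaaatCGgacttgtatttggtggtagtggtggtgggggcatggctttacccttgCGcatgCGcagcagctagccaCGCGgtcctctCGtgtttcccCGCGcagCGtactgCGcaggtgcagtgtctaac
Hdac2, chr10:36974294-36974543, plus strand: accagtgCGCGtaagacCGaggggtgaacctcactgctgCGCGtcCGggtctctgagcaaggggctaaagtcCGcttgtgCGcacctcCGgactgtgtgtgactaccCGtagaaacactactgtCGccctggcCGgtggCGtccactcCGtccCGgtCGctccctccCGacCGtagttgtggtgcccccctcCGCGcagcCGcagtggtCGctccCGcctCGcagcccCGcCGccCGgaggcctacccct

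Read as printed, these windows held 10, 14, 16, 16, 13 and 27 CpGs. The median over the 35 windows was 14 CpGs, against 6 over all 32619 windows of the table. The hexamer TGCCGC, the core letters bound by ZFP57, was searched on both strands and was present in 10 of the 35 windows (28.6%), Nap1l5 and Brdt among them, and in 8.73% of all windows. The E-box letters CACGTG, bound by MAX complexes at promoters of many germline genes, were present in 5 of the 35 windows (14.3%), Brdt among them, and in 6.06% of all windows. The windows of Gm31608, which held the hexamer, overlap each other, as do those of Fkbp6, which held both motifs. A site can thus count more than once in these shares. Both motifs hold a CpG, and neither contains the other. The part of the higher CpG content of the 35 windows in these shares was not tested.

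Overlap peaks had a lower median width than H3K9me3-only peaks but a higher median CpG density. Their median width was 1348 bp (quartiles 1001 and 2487 bp, largest 17354 bp), against 1583 bp for H3K9me3-only and 2325 bp for H3K27me3-only peaks. Their median CpG density was 12.5 CpGs per kb (quartiles 6.99 and 21.4), between 9.53 for H3K9me3-only and 13.8 for H3K27me3-only peaks. The share of dense peaks was above both: 28.6% of overlap peaks (67) held at least 20 CpGs per kb, against 7.41% of H3K9me3-only and 23.3% of H3K27me3-only peaks. The densest overlap peak, over B3glct, held 73.2 CpGs per kb, and 2 overlap peaks, over Asic4 and Ntm, held none. The densest H3K9me3-only and H3K27me3-only peaks held more, 132 and 148 CpGs per kb. H3K9me3 peaks with H3K4me1 alone had medians of 1831 bp and 8.12 CpGs per kb. The 22 with both other marks had 2358.5 bp and 16.7 CpGs per kb, denser than the overlap peaks. Width depends on the selection itself, since a wide peak meets another more often, and the smallest peaks all have the same width of 1001 bp. The lower median width did not hold for the 117 overlap peaks with a peak in the H3K9me3 library without bisulfite. Their median was 2396 bp, and H3K9me3-only peaks with that support were not measured apart.

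**Figure D1:**
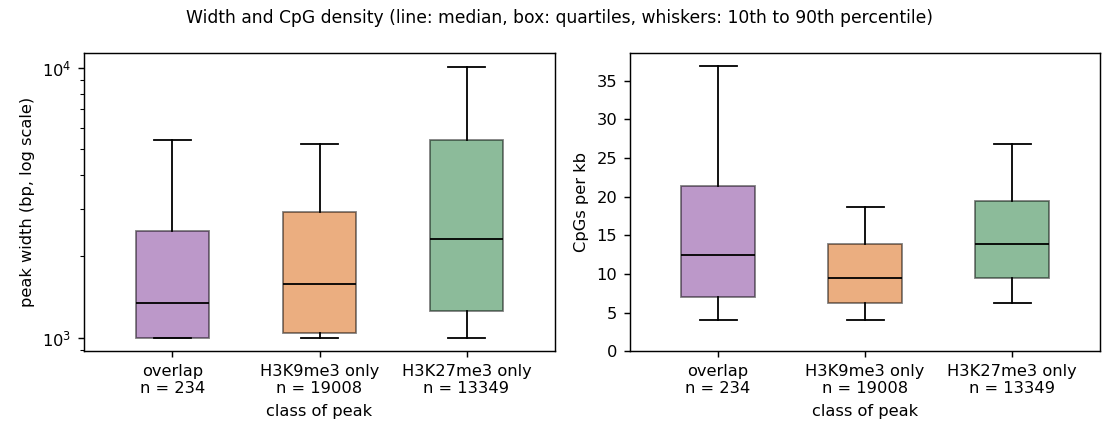
Width (left, bp, log scale) and CpG density (right, CpGs per kb) of 234 overlap peaks, 19008 H3K9me3-only and 13349 H3K27me3-only peaks; lines are medians, boxes quartiles and whiskers the 10th to 90th percentile. The overlap peaks have the lowest median width, 1348 bp, and the highest 90th percentile of CpG density, 36.9 CpGs per kb.

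The 2 marks met in different ways. In 104 overlap peaks (44.4%) the H3K9me3 peak lay inside a broader H3K27me3 peak, whose median width was 13235 bp. In 122 (52.1%) the edges of the peaks overlapped, and in 8 the H3K9me3 peak held the H3K27me3 peak. The covered share had a median of 95% and a lower quartile of 32.6%, and 163 peaks were covered over at least 50% of their bases. The smallest overlap was 20 bp. The methylation level is the number of methylated calls over all calls at the CpGs of a set of peaks, in percent. The 15 peaks with an overlap below 250 bp had levels of 87.6% in H3K9me3 run 2 and 75.2% in H3K27me3 250K. Just outside the rule, the 110 H3K9me3-only peaks with an H3K27me3 peak within 1000 bp (nearest 15 bp away) had 83.1% and 77.1%.

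Support from single libraries was uneven. A peak was present at 220 of the 234 in H3K9me3 run 2, at 125 in run 1 and at 117 in the H3K9me3 library without bisulfite. For H3K27me3 the numbers were 2, 57, 149 and 172 in 4K, 20K, 100K and 250K, and 207 without bisulfite. Run 2 was the only H3K9me3 library with a peak at 80 of them (34.2%), and 108 (46.2%) had a peak in both libraries without bisulfite. The share with a peak in run 2, 94.0%, was near that over all H3K9me3 peaks, 94.1%. Those of the 108 with enough calls are used below as a check of the median difference and of the number of peaks tested as higher in H3K9me3.

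Over all overlap peaks together the methylation level was 76.2% in H3K9me3 run 2 (31745 calls, 95% Wilson interval 75.7 to 76.7%) and 41.5% in H3K27me3 250K (45783 calls, 41.0 to 41.95%). Run 1 gave 74.4% (9916 calls). The 4K, 20K and 100K libraries gave 40.3, 37.1 and 38.8% from 486, 6704 and 32301 calls. H3K4me1, which had no peak there, left 941 and 2285 calls with levels of 31.0 and 30.5% in its runs. With all calls pooled, the H3K9me3 runs thus read above 50% and the libraries of the other marks below it, which does not hold peak by peak. PCR copies were not told apart by molecular identifiers, so all intervals and limits given here cover only the error of counting. Over the 19 chromosomes the level ranged from 54.3 to 86.0% in H3K9me3 run 2 (SD 8.98, n = 19) and from 12.6 to 86.8% in H3K27me3 250K (SD 21.0, n = 19). Pooled levels weight peaks by their calls, which reached 2189 in a single peak with 250K.

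Overlap peaks lay between the classes that carried a single mark. H3K9me3-only peaks had 86.8% in H3K9me3 run 2 and 79.6% in H3K27me3 250K, and H3K27me3-only peaks 50.9 and 28.8%. With H3K9me3 run 2 the overlap peaks were below H3K9me3-only peaks on 19 of 19 chromosomes and above H3K27me3-only peaks on 19 of 19. With H3K27me3 250K the counts were 18 and 15 of 19. Chromosomes of a single library are not replicates, and these counts describe how evenly the order held.

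**Figure D2:**
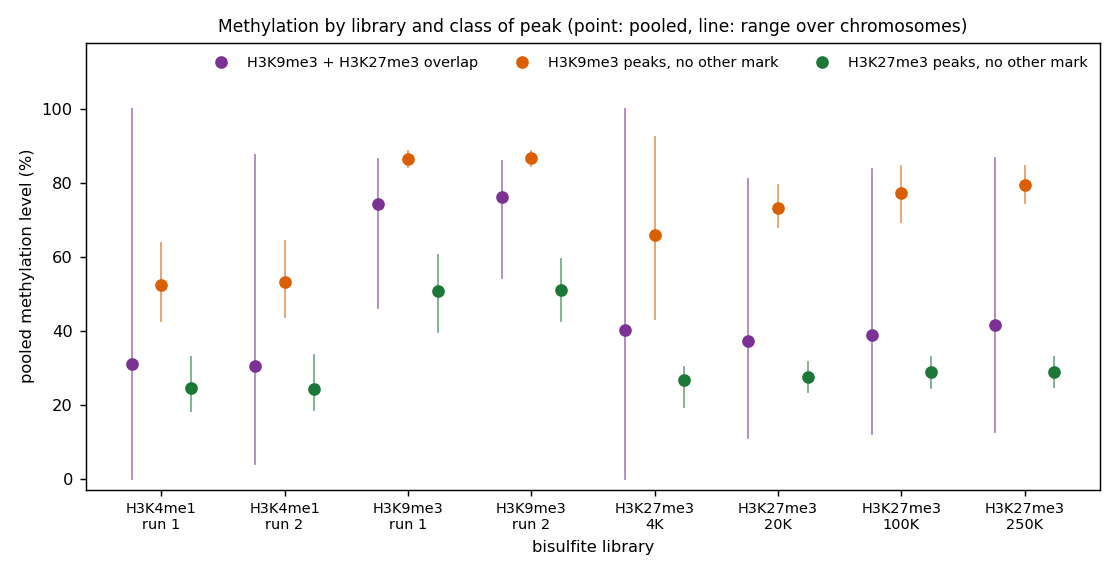
Pooled methylation level (percent, y axis) in each of the 8 bisulfite libraries (x axis) for overlap, H3K9me3-only and H3K27me3-only peaks; points are pooled levels and lines the range over chromosomes with a call. Overlap peaks sit near the H3K9me3-only peaks in the H3K9me3 runs (74.4 and 76.2%) and nearer the H3K27me3-only peaks in the H3K27me3 libraries (37.1 to 41.5%).

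Peak by peak, the gap was far smaller than the pooled levels imply. The median overlap peak with at least 10 calls had 83.8% in H3K9me3 run 2 (210 peaks, quartiles 57.5 and 90.9%) and 72.9% in H3K27me3 250K (208 peaks, quartiles 33.2 and 88.2%). Both libraries reached 10 calls at 199 peaks, and the difference there, H3K9me3 run 2 minus H3K27me3 250K, had a median of 6.02 percentage points (quartiles −0.949 and 17.3). H3K9me3 was higher at 141 peaks and H3K27me3 at 58. Over all 2355 H3K9me3 peaks tested the median was 0.674 points, and over the 1889 H3K9me3-only peaks tested −0.303 points. It was higher than in the overlap peaks where H3K9me3 peaks met H3K4me1, with 9.13 points over 248 tested peaks that met H3K4me1 alone and 23.1 points over 19 that met both other marks. A higher level in H3K9me3 was thus not particular to the overlap peaks. In the 104 tested peaks with both libraries without bisulfite in support, a subset chosen after seeing the data, the median was 7.98 points.

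Each peak was then tested by Fisher's exact test, two-sided, on its methylated and unmethylated calls in the 2 libraries, with Benjamini-Hochberg adjustment over all 2355 tested H3K9me3 peaks. At an adjusted p under 0.05, H3K9me3 was higher at 48 of the 199 overlap peaks (24.1%), against a background of 7.13% over all tested peaks. The share was 7.66% of the peaks with H3K4me1 alone and 57.9% of the 19 with both other marks. H3K27me3 was higher at 0 of 199 (background 0.212%), and at 3 of 199 by the unadjusted p, against 65 in the other direction. Those 3 were a peak over Krt72, an intergenic one at chr18:79998825-80009376 and one at chr3:16051501-16052576. The last 2 reached an adjusted p of 0.0315 and 0.0328 when only peaks with at least 20 calls were tested. At the threshold of 20 points without a test, 44 peaks (22.1%, background 12.8%) were higher in H3K9me3 and 3 (1.51%, background 2.29%) in H3K27me3. None of these 3 passed Fisher's exact test.

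Depth bears on this count. The tested overlap peaks had a median of 86 calls in H3K27me3 250K against 15 over all tested peaks, and the test finds more where calls are many. Where each library had 50 calls or more, a comparison chosen after seeing the data, H3K9me3 was higher at 42 of 105 overlap peaks (40.0%, 95% Wilson interval 31.1 to 49.6%) and at 20 of 78 H3K9me3-only peaks (25.6%, 17.3 to 36.3%). Their median differences were 10.3 and 9.26 points. Of those with at least 20 CpGs per kb, 33 of 60 overlap peaks (55.0%, 42.5 to 66.9%) and 15 of 52 H3K9me3-only peaks (28.8%, 18.3 to 42.3%) were higher in H3K9me3. Below that density the numbers were 9 of 45 (20%) and 5 of 26 (19.23%). Depth still differed under this minimum, with a median of 220 calls in H3K27me3 250K for these overlap peaks and 67 for the H3K9me3-only peaks, and of 306 and 70 in the dense ones. The part of depth in the remaining difference between the shares was not tested.

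**Figure D3:**
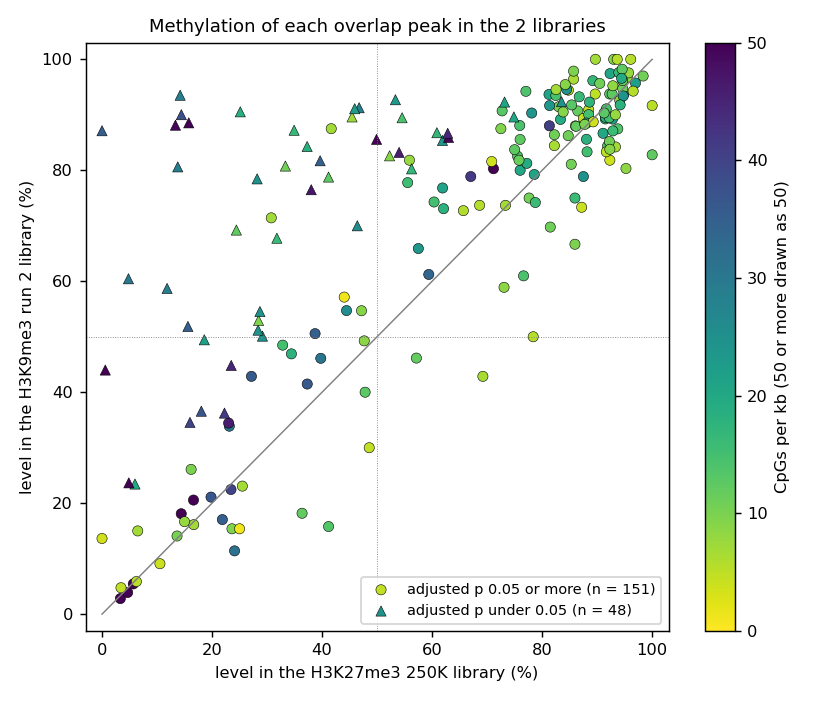
Methylation level of each of 199 overlap peaks in H3K27me3 250K (x axis, percent) and H3K9me3 run 2 (y axis, percent), coloured by CpGs per kb; triangles passed the Fisher test and the diagonal marks equal levels. All 48 triangles lie above the diagonal, and 122 peaks form a group above 50% in both libraries.

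Splitting both levels at 50% gave 3 sizeable groups. In 122 of the 199 peaks both libraries read above 50%, with a median density of 12.9 CpGs per kb, and 12 of these passed the test. In 41 both read below 50% (median density 21.6 CpGs per kb), 16 of them over a promoter window, and 8 passed the test. In 34 H3K9me3 was above and H3K27me3 below 50%. These 34 were wide (median 3481 bp) and CpG-dense (median 24.8 CpGs per kb), 28 passed the test, and 25 had a peak in both libraries without bisulfite. The opposite, H3K9me3 below and H3K27me3 above 50%, was seen at 2 peaks, at chr9:30633659-30634911 and chr9:87754293-87756300, and neither passed the test. The remaining 35 peaks had too few calls. The groups are cut from the same levels that the test compares, so their share of passed tests is a description.

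Within the overlap peaks, levels were lowest in both libraries at the highest CpG density and highest at the middle one. Below 10 CpGs per kb (87 peaks) the levels were 77.2% in H3K9me3 run 2 and 62.6% in H3K27me3 250K. From 10 to below 20 (80 peaks) they were 83.2 and 66.2%, and at 20 or more (67 peaks) 69.5 and 30.2%. The gap between the pooled levels was thus widest in the densest peaks. H3K9me3-only peaks of the same densities had 85.1 and 83.4%, 88.5 and 85.1%, and 82.3 and 58.9%. H3K27me3-only peaks had 75.6 and 68.2%, 59.8 and 32.7%, and 32.4 and 20.1%. Peak by peak, at 50 or more calls in each library, the gap was smaller. The median difference of overlap peaks was 17.1 points at 20 or more CpGs per kb and 4.03 below. In H3K9me3-only peaks it was 11.6 and 2.89 points.

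Pooled over the partly covered overlap peaks, methylation was lower over the overlapped bases in the libraries of both marks. Partly covered overlap peaks had 89.6% in H3K9me3 run 2 and 77.8% in H3K27me3 250K outside the overlap. Over the overlapped bases of this set of peaks the levels were 60.2 and 37.2%. Peaks with a large covered share weigh more in the overlapped bases, and those with a small share weigh more outside. The parts were not compared within each peak. In the H3K27me3 peaks beyond the H3K9me3 edge they were 58.6 and 31.2%, with 16.7% in H3K4me1 run 2. Run 1 (89.1, 58.3 and 56.3%) and 100K (75.3, 36.1 and 30.9%) gave the same order. The H3K9me3 call number per CpG fell from 3.89 outside to 3.12 over the overlap and 0.261 beyond the peak, so the last value comes from a thin background of H3K9me3 calls. In H3K27me3 250K the call number per CpG rose from 0.461 outside to 6.47 over the overlap and 20.4 beyond the H3K9me3 edge. Its 77.8% outside the overlap thus comes from a thin background of H3K27me3 calls.

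**Figure D4:**
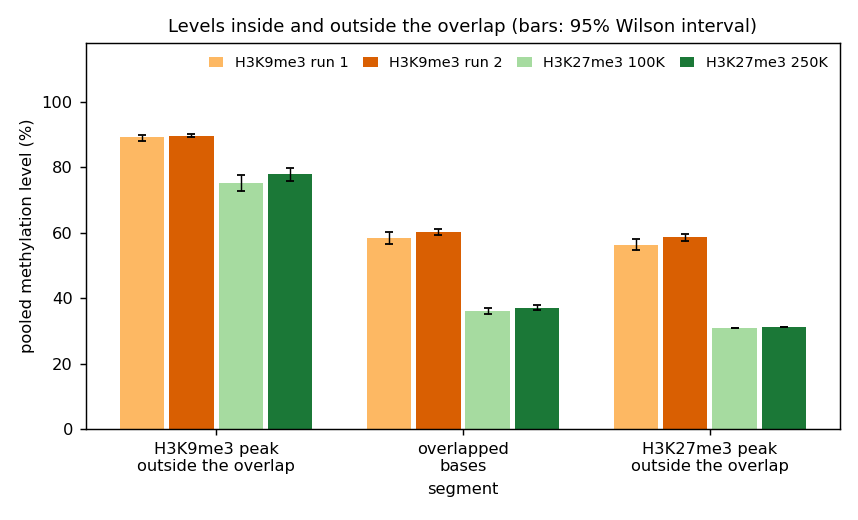
Pooled methylation level (percent, y axis) in 3 segments (x axis: the H3K9me3 peak outside the overlap, the overlapped bases, the H3K27me3 peak outside the overlap) for 4 libraries, with 95% Wilson intervals. In every library shown the first segment is highest, at 89.6% in H3K9me3 run 2 and 77.8% in H3K27me3 250K.

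Single CpGs showed the same asymmetry. Of 9508 CpGs in overlap peaks, 8268 had a call in H3K9me3 run 2, 6258 in H3K27me3 250K and 5474 in both. At the 750 CpGs with at least 5 calls in each, 41.2% were above 80% and 24.5% below 20% in H3K9me3 run 2, against 27.7 and 39.5% in H3K27me3 250K. A level above 80% in H3K9me3 with a level below 20% in H3K27me3 occurred at 55 CpGs (7.33%), in 8 peaks. The reverse occurred at 0 of the 750. In H3K9me3-only peaks 157 CpGs had at least 5 calls in each library. There the first pattern occurred at 1 CpG (0.637%) and the reverse also at 0. On the 5474 CpGs called in both libraries the pooled levels were 69.7 and 42.1%, a smaller gap than over all CpGs.

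The named peaks were taken by a rule on size of difference, width, CpG density, calls and gene list. Of the 6 with the highest difference, 3 lie at or near genes known to be imprinted. Only 1 of these, over Peg3 and Usp29, overlaps a gene of the imprinted list used here, as do 3 of all 234 overlap peaks (1.28%). How many overlap peaks lie near any imprinted gene was not counted. The first of the 6 lies over the shared promoter region of Peg3, a paternally expressed zinc finger gene, and Usp29, its divergent imprinted neighbour (chr7:6727252-6730948). In run 1 H3K9me3 read 85.9% of 135 calls, and in run 2 87.1% of 373. H3K27me3 read 0.98% of 102 calls in 100K, 0 of 22 in 20K (which allows up to 13.6%) and 0 of 137 in 250K (up to 2.19%), and the single 4K call was unmethylated. H3K4me1 read 0 of 12 (up to 25%) and 0 of 26 (up to 11.5%). Both H3K9me3 runs are thus high and every other library at or near 0, without overlap, and the difference between run 2 and 250K was 87.1 points (adjusted p = 8.6e-81, Fisher's exact test). On the 57 CpGs called in both libraries it was 85.9 points. The H3K27me3 peak there, which covers 21.0% of the H3K9me3 peak, was called in 250K alone. The printed Usp29 window lies in it, with 91.4% of 35 calls methylated in H3K9me3 run 2 and 0 of 46 (up to 6.52%) in H3K27me3 250K.

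The second lay between genes, 29269 bp from Rasgrf1, a Ras exchange factor whose imprinting is set by a methylated region upstream of it (chr9:89878396-89880239). H3K9me3 read 98.3% of 59 and 93.5% of 170 calls. H3K27me3 read 60.0% of 5 calls in 4K, 9.40% of 266 in 20K, 13.9% of 1479 in 100K and 14.2% of 2189 in 250K. H3K4me1 read 0 of 4 and 0 of 12 calls (up to 75 and 25%). Apart from the 5 calls of 4K, the H3K27me3 libraries all lie far below both H3K9me3 runs. The difference was 79.3 points (Fisher's exact test, adjusted p = 4.1e-104). This H3K9me3 peak of 1844 bp lay inside an H3K27me3 peak of 27292 bp, and the H3K27me3 calls changed within it: from 250 to 500 bp right of its centre 1.90% of 1054 calls were methylated, while from 750 to 500 bp left of it 47.4% of 325 were. Bins named here and below were chosen after their values were seen.

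The fourth covers the promoter of Nap1l5, an imprinted, paternally expressed retrogene in an intron of Herc3, a ubiquitin ligase gene (chr6:58906772-58907804). H3K9me3 read 87.7% of 81 and 88.1% of 177 calls. H3K27me3 read 50.0% of 4 calls in 4K, 3.08% of 65 in 20K, 6.53% of 291 in 100K and 13.3% of 487 in 250K, and H3K4me1 0 of 8 and 0 of 10 (up to 37.5 and 30.0%). The H3K9me3 runs again do not overlap the deeper H3K27me3 libraries, and the difference was 74.8 points (Fisher's exact test, adjusted p = 2.0e-71). In the Nap1l5 window printed above, 92.7% of 55 calls were methylated in H3K9me3 run 2 and 5.4% of 92 in H3K27me3 250K. Low H3K27me3 levels lay left of the centre of the peak, where the bin with most calls read 5.50% of 218, while the bins to its right read 55.6% of 18 and 88.6% of 35 calls.

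The other 3 lie over genes of none of the lists used here. A peak over Gp5, which encodes platelet glycoprotein V (chr16:30307779-30310427), read 95.5% of 110 and 88.6% of 166 calls in the H3K9me3 runs. H3K27me3 read 80% of 5, 12.8% of 109, 19.9% of 589 and 15.8% of 907 calls from 4K to 250K. The difference was 72.8 points (adjusted exact p = 1.1e-73). A peak over Gm18180 and Spata3, a spermatogenesis-associated gene (chr1:86015706-86018972), read 80.5% of 77 and 80.6% of 227 calls in H3K9me3. In H3K27me3 it read 16.7% of 203, 18.4% of 1197 and 13.8% of 1794 calls in 20K, 100K and 250K (66.8 points, adjusted exact p = 1.0e-92). A peak over the predicted genes Gm40843 and LOC115488029 (chr12:19246584-19249060) read 92.8% of 69 and 90.02% of 461 calls in H3K9me3, and 3.51% of 57, 16.1% of 571 and 14.4% of 527 in the same H3K27me3 libraries (75.6 points, adjusted exact p = 1.2e-136). Predicted genes can have close copies in the genome, and no filter on reads with several matches is given in the sources used here, so this peak is uncertain. At all 3 the H3K9me3 runs lie above the 20K, 100K and 250K libraries without overlap. H3K27me3 levels varied along the peaks. At Gp5 all 5 bins from 500 bp left to 750 bp right of the centre were at or below 7.58%, while the bin from 1250 to 1000 bp left of it read 96.3% of 27 calls. At Gm40843 the bin with most calls read 7.69% of 429 and its right neighbour 52.6% of 57.

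**Figure D5:**
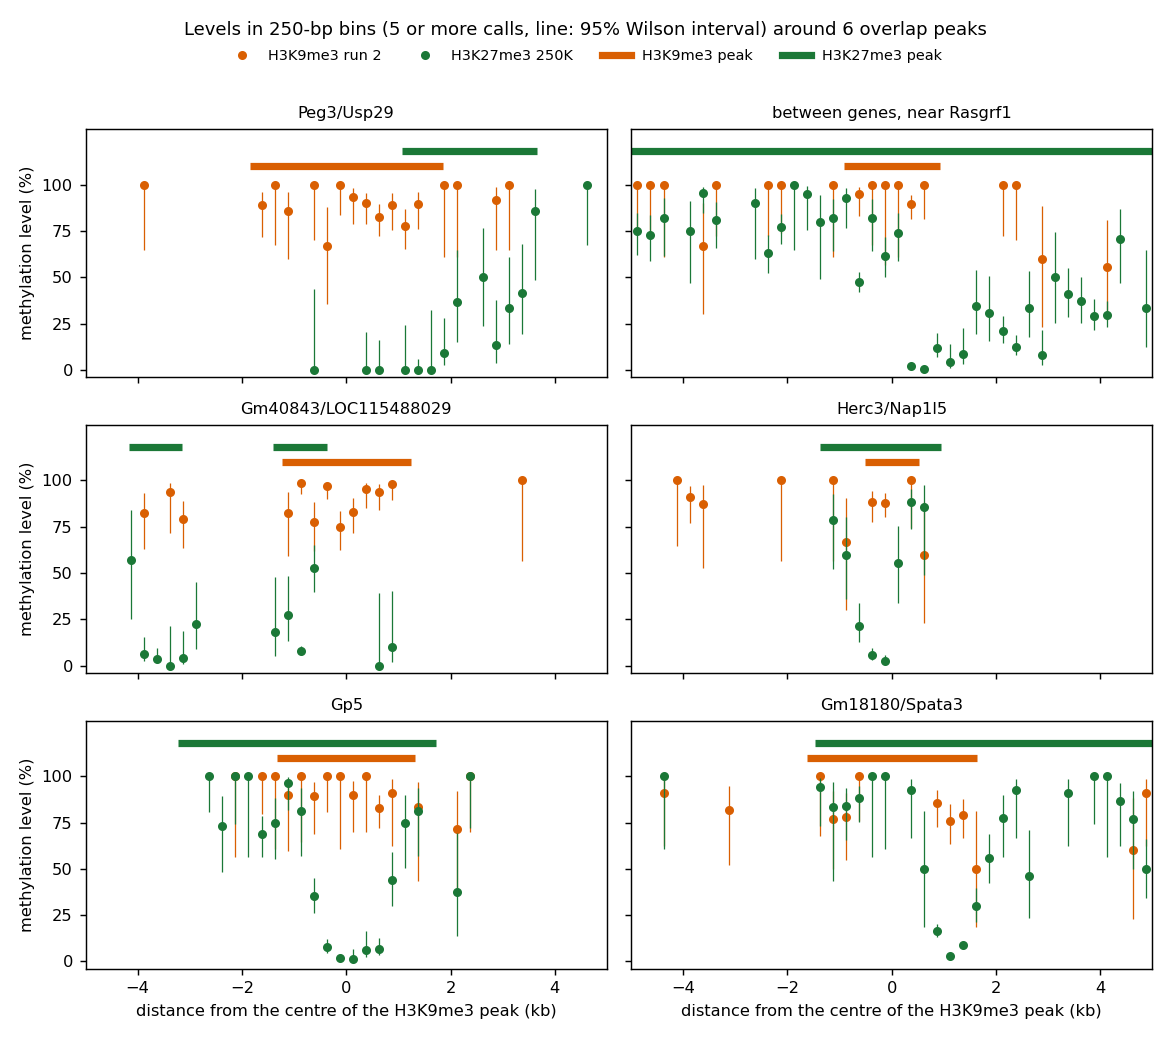
Methylation level (percent, y axis) in 250-bp bins by distance from the centre of the H3K9me3 peak (x axis, kb) for the 6 overlap peaks with the highest difference, in H3K9me3 run 2 and H3K27me3 250K; bins need 5 calls, lines are 95% Wilson intervals and bars at the top mark peaks. In the bin of each peak with most H3K27me3 calls, H3K27me3 levels lie between 0 and 8.61% and H3K9me3 levels between 78.9 and 100%.

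Peaks over the germline list went other ways. These genes act in meiosis or in male germ cells and many are methylated in somatic cells. At Brdt, a testis bromodomain gene (chr5:107329453-107331723), H3K9me3 read 50.0% of 48 and 54.5% of 154 calls, and H3K27me3 42.1% of 19, 48.9% of 131 and 28.7% of 108 in 20K, 100K and 250K. The difference of 25.8 points passed the test (adjusted exact p = 0.0011), but was 5.69 points against 100K and did not pass with that library, with run 1 or on CpGs called in both. Syce1, of the synaptonemal complex (chr7:140787183-140788436), read 14.1% of 71 and 22.5% of 138 calls in H3K9me3, and 32.4% of 74, 24.4% of 168 and 23.4% of 256 in those H3K27me3 libraries. Mei1, needed for meiotic double-strand breaks (chr15:82072096-82073096), read 78.6% of 14 and 74.2% of 31 calls, and 75.0% of 60, 76.3% of 131 and 78.8% of 325. At Syce1 and Mei1 the libraries of both marks overlap (adjusted exact p = 1 for each).

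Of the 4 peaks with the lowest levels in both libraries, 3 were among the CpG-densest, and those at Hdac2 and Gm10479 held a promoter window. The peak at Hdac2, a histone deacetylase gene (chr10:36973574-36974574, 63.9 CpGs per kb), read 0 of 59 calls (up to 5.08%) and 3.90% of 231 in H3K9me3. It read 7.93% of 328 and 4.66% of 322 in 100K and 250K, and 4.35% of 46 and 0 of 96 (up to 3.12%) in H3K4me1. Catspere2, for an accessory subunit of a sperm calcium channel (chr1:177982736-177983736, 58.9 CpGs per kb), read 2.80% of 107 calls in H3K9me3 run 2 and 3.33% of 90 in H3K27me3 250K. The predicted gene Gm10479 (chr12:20414809-20416061, 71.0 CpGs per kb) read 5.45% of 257 and 5.69% of 633. Tox, a thymocyte HMG-box gene with only 5 CpGs in its peak (chr4:6968476-6969503), read 4.76% of 21 and 3.45% of 58. None of these 4 passed the test. The H3K9me3 peaks at Hdac2 and Catspere2 were called in run 2 alone. B3glct, a glucosyltransferase gene (chr5:149677589-149679322), was the densest of the overlap peaks and did differ. It read 28.9% of 142 and 23.7% of 338 calls in H3K9me3 and 2.94% of 102, 4.19% of 573 and 4.87% of 677 in 20K, 100K and 250K (18.8 points, adjusted exact p = 4.6e-16). The B3glct window printed above did not show that difference: it read 9.85% of 132 calls in H3K9me3 run 2 and 17.6% of 51 in H3K27me3 250K, and 20.9% of 67 and 25% of 12 in run 1 and 100K.

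The other wide or deeply called peaks mostly differed by under 10 points. The widest, 17354 bp at chr2:116531420-116548773 and 329920 bp from the nearest protein-coding gene, Tmco5, read 91.5% of 983 calls in H3K9me3 run 2 and 83.0% of 53 in H3K27me3 250K (adjusted exact p = 0.34). The peak at chr8:106493429-106506253, near the cadherin gene Cdh3, read 88.3% of 469 and 87.8% of 147. A peak over H19, the maternally expressed imprinted RNA, and its microRNA Mir675 (chr7:142575898-142587978) read 93.2% of 1199 and 86.7% of 166 (adjusted exact p = 0.082), and one over Kcnq1, an imprinted potassium channel gene, and Kcnq1ot1 (chr7:143224403-143230768) 88.7% of 71 and 89.3% of 28. Neither difference passed the test, though that at H19 did when only peaks with 20 or more calls were tested and against 100K (12.8 points). The peak over Gm4349 and Gm9173 (chr3:95414865-95427657), both predicted, read 86.8% of 915 and 60.9% of 46 (adjusted exact p = 0.00052), but only 9.15 points apart on CpGs called in both, where it did not pass. Among the most deeply called in H3K27me3, Wnt3, a signalling ligand gene (chr11:103803901-103806856), read 93.8% of 144 and 92.3% of 1452 calls. Henmt1, which methylates piRNA ends (chr3:108938432-108940613), read 41.5% of 217 and 37.3% of 1839. Neither passed the test, though Henmt1 did against 100K, with a difference of 10.3 points.

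Overlap peaks lay at genes more often than H3K9me3-only peaks. Of the 234, 120 (51.3%, 95% Wilson interval 44.9 to 57.6%) overlapped a gene of the RefSeq table, 55 lay within 5000 bp of one and 59 (25.2%) farther away. Of H3K9me3-only peaks 32.3% overlapped a gene and 57.1% lay farther away, and of H3K27me3-only peaks 66.5 and 23.2%. A promoter window (250 bases before to 50 after a start) was met by 32 overlap peaks (13.7%), 1.72% of H3K9me3-only and 22.0% of H3K27me3-only peaks. On both measures the overlap peaks were nearer the H3K27me3-only than the H3K9me3-only peaks. Of H3K9me3 peaks with H3K4me1 alone, 43.6% overlapped a gene and 4.73% met a promoter window. Of the 22 with both other marks, 63.6 and 13.6% did, so these shares were not particular to the overlap peaks. Some overlap peaks lay in small groups, and 42 had another overlap peak within 20000 bp.

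By gene list, clustered protocadherins, cell adhesion genes in tandem arrays, held 5 overlap peaks of the 11 H3K9me3 peaks over such genes. Zinc finger genes held 4 (Zfp775, Zfp280d, Zfp575 and Zfp768) of 122, germline genes 3 of 17, imprinted genes 3 of 24 (Peg3 with Usp29, H19, and Kcnq1 with Kcnq1ot1) and keratins 3 (Krt86, Krt87 and Krt72) of 7. Nap1l5 was not on the imprinted list, and the Kcnq1 peak counts in that list and among the ion channels. Ion channels (Kcnq1) held 1 of 77 and developmental transcription factors (Foxn3) 1 of 21. Chemosensory receptors held 0 of 142, cadherins and contactins 0 of 81 and immune receptor segments 0 of 12. For comparison, overlap peaks were 1.14% of all 20576 H3K9me3 peaks, and 120 of the 6842 that overlapped any gene. These counts carry no test.

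The protocadherin peaks all lay inside H3K27me3 peaks on chromosome 18, 4 in the alpha and 1 in the gamma cluster, and were CpG-dense (40.8 to 52.3 CpGs per kb). In H3K9me3 run 2 they read 85.9, 83.2, 85.6, 88.0 and 76.5%, and in H3K27me3 250K 63.0, 54.0, 49.9, 81.3 and 38.0%. All 5 were higher in H3K9me3 and 4 passed the test, the fourth (adjusted exact p = 0.31) being the exception. These counts stand beside 24.1% of all tested overlap peaks, and beside the 55.0% given above for overlap peaks with at least 20 CpGs per kb and 50 calls in each library, which all 5 had. All 4 zinc finger peaks passed it, and 3 of them also had that density and depth: Zfp775 read 44.8 and 23.5%, Zfp280d 69.2 and 24.4%, the peak over Ethe1 and Zfp575 81.7 and 39.6%, and Zfp768 86.7 and 62.8%. Of the keratin peaks, Krt86 (80.3 and 56.3%) passed, and Krt87 (93.8 and 92.7%) and Krt72 (66.7 and 86.0%) did not. Foxn3 read 89.4 and 87.5% and did not pass.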

How the data were processed

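Methylation calls and peaks of 11 samples were used. The authors deposited a table of counts, methylated and total calls at each CpG, for the 8 bisulfite libraries and runs, without normalization, and lists of peak positions without scores, which were used as given. The submitters' processing notes name cutadapt 1.12, Bismark 0.23.0, Bowtie2 2.3.0, HOMER 4.10.3, bedtools 2.29.2 and the build mm10. Their roles, the treatment of duplicate reads and of reads with several matches, and peak thresholds are not given in the sources used here, and duplicates kept would narrow the intervals too far. No count column was left out. All 360715 CpGs of the RefSeq promoter windows (GRCm38.p6) were found in the table at the same position, counted from 1.

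Calls were summed per peak and divided in Python 3.11.15 with numpy 2.4.6, pandas 2.3.3 and scipy 1.17.1. Peaks with at least 10 calls in both H3K9me3 run 2 and H3K27me3 250K were tested with Fisher's exact test. On chromosomes 1 to 19 the libraries held from 370744 (4K) to 36558653 calls (250K), with 6065726 in H3K9me3 run 2, and the median overlap peak held 69 calls in run 2 and 59 in 250K. The test was checked on simulated data in which each call was drawn independently, which does not cover calls that share a fragment. Genes and promoters came from RefSeq tables by position.

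Named peaks were the 6 with the highest and the 6 with the lowest difference that passed the test with at least 20 calls and kept its sign in run 1 against 100K (0 qualified as lowest), the 4 widest, the 4 CpG-densest, the 4 with most H3K27me3 250K calls, the 4 lowest in both libraries, and those over imprinted or germline genes: 21 in all. The peaks, gene lists, hexamer and named peaks were chosen with earlier results of these data known. Alternatives changed the overlap, the peak lists, the run or cell number, the call minimum and the CpGs counted.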

Additional observations from a re-analysis of the deposited data

How the results depend on the processing

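The median difference kept its direction under every alternative run, from 3.97 points inside H3K27me3 peaks to 7.98 with both libraries without bisulfite in support, both subsets chosen after seeing the data. The number of overlap peaks was 91 with the lists of the libraries without bisulfite. The pooled H3K9me3 level was 74.4% without run 2, 74.8% with equal weight per CpG, 62.6% over the overlapped bases and 69.7% at CpGs called in both libraries. The pooled H3K27me3 level was 38.8% in 100K, 37.1% in 20K, 54.6% with equal weight per CpG, 38.1% at CpGs with 5 or more calls, 39.9% over the overlapped bases and 42.1% at CpGs called in both. Peaks higher in H3K9me3 numbered 27 of 155 with 1 state per CpG (17.4%, background over all tested peaks 6.28%), 46 of 219 at 5 or more calls (21.0%, background 3.24%), 50 of 173 at 20 or more (28.9%, background 17.6%), 36 of 161 without run 2 (22.4%, background 5.95%), 54 of 196 against 100K (27.6%, background 12.7%) and 36 of 195 at CpGs called in both (18.5%, background 3.86%). They numbered 37 of the 104 with both libraries without bisulfite in support (35.6%). The share over all H3K9me3 peaks with that support was not counted, so this number has no background. Peaks higher in H3K27me3 numbered 2 of 173 at 20 or more calls (1.16%, background 0.662%). They numbered 1 of 161 without run 2 (0.621%, background 0.229%) and 1 of 195 at CpGs called in both (0.513%, background 0.093%). The peak at chr18:79998825-80009376 was among them each time. The median width was 2396 bp and the median density 14.7 CpGs per kb with a peak in the H3K9me3 library without bisulfite, and the width 1253 bp with 50% coverage. The cause of these shifts was not tested.

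Differences that changed sign were all at peaks that did not pass the test: Catspere2 (1.123 points in 100K, 2.13 at CpGs called in both), Henmt1 (−6.23), Syce1 (9.35), Hdac2 (1.09) and Wnt3 (−5.41) with 1 state per CpG, Kcnq1/Kcnq1ot1 (13.7 in 100K, 8.07 with 1 state), chr8:106493429-106506253 (−0.338 without run 2, −0.858 in 100K) and Gm10479 (0.261 in 100K). No paired analysis was possible because the H3K27me3 libraries carry no run numbers. Depth limits the rest: 35 overlap peaks had too few calls to test.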

Other observations

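Some overlap peaks, chosen after their values were seen, lie close together. On chromosome 12, 4 lie over predicted genes between 18128769 and 20416061, and their levels in H3K9me3 run 2 and H3K27me3 250K ran from wide apart to equal: 90.02 and 14.4% at Gm40843/LOC115488029, 60.4 and 4.81% at Gm40850/LOC108167983, 23.5 and 5.99% at Gm40881, and 5.45 and 5.69% at Gm10479. At Gm40850/LOC108167983 the difference fell from 55.6 points over all CpGs to 30.1 at CpGs called in both libraries.

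Near H19 on chromosome 7, further overlap peaks over Igf2os (91.8 and 94.2%) and Gm7290 (96.6 and 94.4%) were methylated in both libraries, like the peak over H19. At Zic4, a neural zinc finger transcription factor gene, the peak at chr9:91384642-91388336 read 90.5% of 296 calls in H3K9me3 run 2 and 25.1% of 370 in H3K27me3 250K (adjusted p = 9.9e-68, Fisher's exact test), and 92.0 and 24.8% in run 1 and 100K. At Dapk1, a kinase gene (chr13:60600739-60602050), the levels were 44.0% of 100 and 0.595% of 168 calls, and the difference of 43.4 points was 15.6 points at CpGs called in both libraries.

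On chromosome X, outside the counts above, 3 peaks met the same rule. The peak at chrX:38179748-38180769 read 61.9% of 63 calls in H3K9me3 run 2 and 10.9% of 534 in H3K27me3 250K. The peak at chrX:168495836-168496836 read 65.2% of 141 and 32.1% of 81, and the one at chrX:103165847-103167154 93.6% of 47 and 100% of 45.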
